A study of Mus musculus with 4 samples.

Results

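MIZ-1 is a zinc finger transcription factor encoded by Zbtb17. Its zinc fingers contact DNA, whereas its amino-terminal POZ domain mediates self-association and the recruitment of co-factors. MIZ-1 activates genes on its own and represses genes together with partners such as MYC. It is best known from promoters, so that peaks far from start sites in unique sequence are a less described part of its occupancy.

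The peaks examined here were called for MIZ-1WT, lay away from promoters and coding exons in sequence with little repeat masking, and overlapped no MIZ-1DPOZ peak. Of 34209 MIZ-1WT peaks, 25281 were not at a promoter, 5514 of these had 50% or less repeat-masked bases within 100 bp of the summit, 5370 also had a GC content of 40% or more, and 4457 also had the summit outside coding exons. No MIZ-1DPOZ peak overlapped 2406 of these 4457 peaks, called wild-type-only distal peaks below, and 2051 were shared. The overlap is a measured value and chose the peaks, so that the absence of a MIZ-1DPOZ peak is a description and not a result. The share without overlap was 54.0% (95% Wilson interval 52.5 to 55.4), and among all MIZ-1WT peaks it was 46.3%.

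Both peak lists came from B220+ splenocytes of mice on a C57BL/6 background that were 40 to 70 days old. MIZ-1WT mice carried the wild-type protein, and whether they also carried Cre is not given in the sources used here. MIZ-1DPOZ mice (genotype Miz-1 delta POZ) came from a cross of MB1-Cre and Miz-1 floxPOZ animals, where Cre is driven by the Cd79a promoter, so that the POZ domain is lost in B lineage cells. Antibody H-190 was used for 1 ChIP library per genotype, each with 1 input library, and the sources used here do not give the number of pooled mice. The comparison therefore has no replicate, and every interval below covers counting error only. The study describes fewer follicular and more marginal zone B cells in the MIZ-1DPOZ spleen, and the cell mixture and the genotype cannot be told apart in these lists. Peak lists hold no expression values, so neither the B cell identity nor the POZ deletion could be checked from marker levels. At Zbtb17 itself each list held 2 peaks within 2000 bp of the gene, none of them a wild-type-only distal peak. The MIZ-1DPOZ list held 78357 peaks and came from a library 1.34 times deeper.

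The label "non-repeat" holds for the rule more than for the summits. No base of the summit window (summit ± 100 bp) was masked in 22.8% of the wild-type-only distal peaks (21.2 to 24.5) and in 37.9% of the shared ones (35.8 to 40.004). The summit base itself was masked in 33.8% (31.97 to 35.7), compared with 19.9% of shared peaks and 21.9% of the 13997 distal peaks found for MIZ-1DPOZ only. Short simple repeats at the summit are thus common among them. Nevertheless, the sequence was mostly unique: 95.8% (94.97 to 96.6) had a single-copy summit, against 74.6% of shared and 87.4% of MIZ-1DPOZ-only peaks. The difference from shared peaks was 21.2 percentage points (19.2 to 23.3).

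The summit sequences show what these peaks consist of. The following windows (GRCm38, plus strand, summit in the middle) come from some of the 10 wild-type-only distal peaks with the largest −log10 q and from Vav1. All have single-copy summits. Capitals mark the longest run in which purines and pyrimidines alternate, where it reached 20 bp. They come from Kdm4b (chr17:56352438-56352638), Lmtk2 (chr5:144166970-144167170), the non-coding gene 9330136K24Rik (chr17:21532410-21532610), Gm20671 (chr5:32737608-32737808) and Vav1 (chr17:57298904-57299104), and the summit of each lies in an intron.
Kdm4b: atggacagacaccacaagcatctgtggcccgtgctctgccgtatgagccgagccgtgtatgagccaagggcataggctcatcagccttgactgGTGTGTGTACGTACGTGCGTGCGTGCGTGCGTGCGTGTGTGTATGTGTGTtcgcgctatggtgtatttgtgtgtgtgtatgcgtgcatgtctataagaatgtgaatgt
Lmtk2: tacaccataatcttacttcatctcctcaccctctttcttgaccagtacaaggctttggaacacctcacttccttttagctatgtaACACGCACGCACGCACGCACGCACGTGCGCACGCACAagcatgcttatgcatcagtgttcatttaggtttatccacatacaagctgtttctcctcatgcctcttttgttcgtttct
9330136K24Rik: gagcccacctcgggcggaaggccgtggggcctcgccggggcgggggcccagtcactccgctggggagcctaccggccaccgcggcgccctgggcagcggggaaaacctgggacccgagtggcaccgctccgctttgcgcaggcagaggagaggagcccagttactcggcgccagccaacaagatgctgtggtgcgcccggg
Gm20671: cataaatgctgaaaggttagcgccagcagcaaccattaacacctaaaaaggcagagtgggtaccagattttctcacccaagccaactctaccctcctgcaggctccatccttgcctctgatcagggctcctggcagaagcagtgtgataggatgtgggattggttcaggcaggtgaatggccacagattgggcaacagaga
Vav1: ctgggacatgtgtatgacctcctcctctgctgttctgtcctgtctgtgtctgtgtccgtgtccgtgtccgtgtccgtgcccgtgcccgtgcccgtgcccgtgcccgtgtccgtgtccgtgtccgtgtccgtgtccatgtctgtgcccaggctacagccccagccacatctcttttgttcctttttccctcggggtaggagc

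Kif26b, which encodes a kinesin family protein, held the peak with the largest −log10 q (chr1:178539601-178539846). It reached 25 fragments at the summit, a fold enrichment of 13.3 and a −log10 q of 22.9, and its window held a telomere-type array. The peak in an intron of the non-coding gene 6030407O03Rik (chr1:73853451-73853700), with 22 fragments and a fold of 12.4, held an array as well. At Nkd1, which encodes an inhibitor of WNT signalling, the peak (chr8:88587266-88587507, 19 fragments, fold 8.98) held an array too. Thus 3 of the 10 leading peaks were telomere-type arrays inside genes.

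Another 3 of the 10 were alternating runs with CpG. In Kdm4b, the gene of a histone H3 lysine 9 demethylase, the run of 50 bp with 7 CpG lay under a peak of 17 fragments (chr17:56352421-56352625, fold 8.91). The gene Lmtk2, a membrane kinase, held a run of 37 bp with 8 CpG under 17 fragments (chr5:144166991-144167179, fold 8.84). The third was an intronic peak of Dtna on chromosome 18 with 17 fragments and a run of 67 bp. In these tracts every other base is a purine.

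The remaining 4 had neither an array nor an alternating run. Those at 9330136K24Rik (chr17:21532389-21532632, 16 fragments) and near Olfr330 (chr11:58521466-58521724, 18 fragments) were CpG-rich, with 20 and 27 CpG in the window. Those in Gm20671 (chr5:32737629-32737833, 22 fragments, 609 bp from a MIZ-1DPOZ peak) and Gm30563 (chr15:64422904-64423074, 17 fragments) had 1 and 2 CpG. The Gm30563 window ended in a tandem repeat of the unit TTC, to the right of the summit.

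How strong were these peaks? Summit pileup is the number of fragments over the summit, recovered from the deposited scores. Its median was 9 fragments (quartiles 8 and 10, range 5 to 54) for wild-type-only distal peaks and 9 (quartiles 8 and 11) for shared distal peaks. The median fold enrichment was 4.84 (interval 4.84 to 4.95) and 5.29 (5.14 to 5.38), and the median width 152 bp and 178 bp. The smallest width MACS2 reported in the MIZ-1WT list, 148 bp, was the width of 44.8% of the wild-type-only distal peaks (42.8 to 46.8) and 25.3% of the shared ones (23.4 to 27.2). Most wild-type-only distal peaks were thus narrow and rested on few fragments. Only 383 of them had 11 fragments or more.

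The share without MIZ-1DPOZ overlap depended on peak height. It was 62.8% (59.7 to 65.8) at pileups of 5 to 7, 60.7% at 8 and 60.9% at 9. At 10 fragments it was 50.1% (46.1 to 54.1), at 11 to 12 it was 48.7%, and at 13 to 19 it was 32.1% (27.1 to 37.4). Among 175 MIZ-1WT distal peaks with 20 fragments or more, 6 were wild-type-only (3.43%, 1.58 to 7.28). High distal peaks were therefore nearly all shared.

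These 6 peaks fell into 2 kinds. The 3 with the most fragments lay near Rny3 (54 fragments, fold 2.88), at Ahnak2 (32 fragments, fold 2.89) and in Pisd-ps2 (29 fragments, fold 3.05), where the local background was 18.1, 10.4 and 8.85 fragments and the summit sequence had 8, 14 and 3 genomic copies. A MIZ-1DPOZ peak lay 139, 981 and 218 bp away. The other 3 were the single-copy peaks at Kif26b, 6030407O03Rik and Gm20671 described above, with backgrounds of 0.860 to 1.89 fragments.

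**Figure D1:**
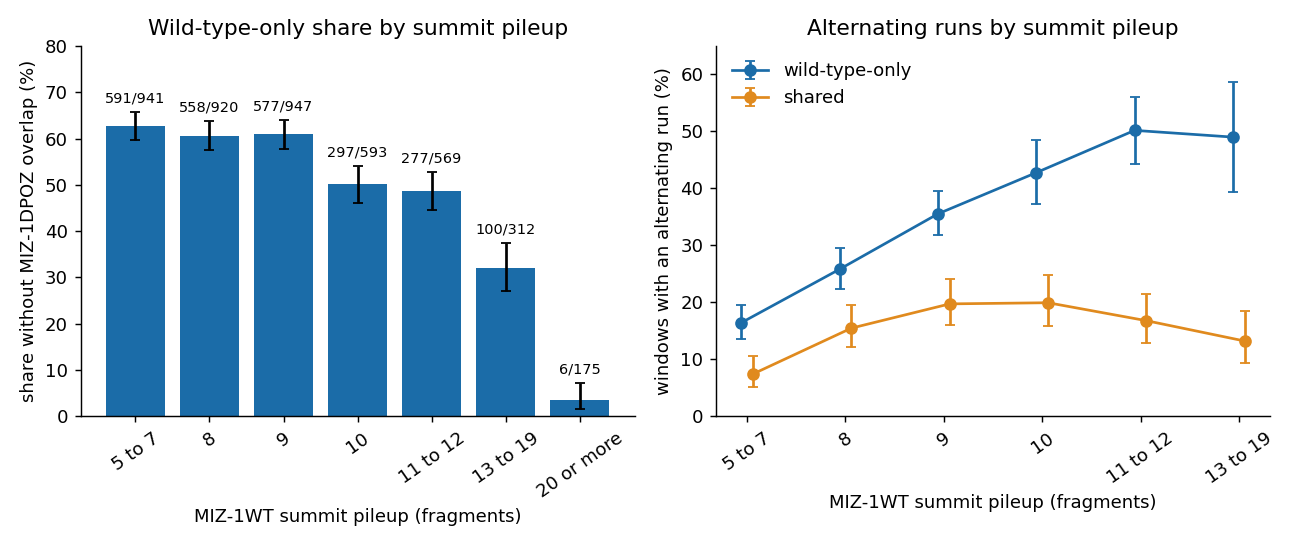
Left, share of 4457 MIZ-1WT distal non-repeat peaks that overlap no MIZ-1DPOZ peak (%) against the MIZ-1WT summit pileup (fragments), with the counts above the bars; right, share of summit windows with an alternating run (%) in wild-type-only and shared peaks, both with 95% Wilson intervals. The left bars are lower at high pileup (62.8% at 5 to 7, 3.43% at 20 or more), and on the right the wild-type-only points lie above the shared ones in each of the 6 classes shown.

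No MIZ-1DPOZ value exists at a site without a peak, and only a limit can be given. Scaled by the depth ratio of 1.34, the wild-type-only distal peaks had a median of 12.1 fragments (range 6.70 to 72.4). The first quartile of the pileup was 10 fragments in MIZ-1DPOZ-only distal peaks, and the 5th percentile was 8. For 591 wild-type-only distal peaks (24.6%) the scaled pileup was under 10, below that quartile. Both values describe called peaks and are not a detection limit. The smallest pileup of a called MIZ-1DPOZ peak at the most frequent background was 6 fragments, below the smallest scaled pileup of 6.70. All 383 peaks with 11 fragments or more had scaled pileups of at least 14.8, and 33 peaks had at least 20.1. The MIZ-1DPOZ list was called with its own local background, which was not known at these sites, so that a lower level was not measured directly.

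The summit windows were next sorted by sequence, within the limits on masking and GC content that the rule sets. Alternating purine-pyrimidine runs, the sequence type that can adopt the left-handed Z form of DNA in vitro, were counted when they reached 20 bp. Such a run was present in 31.6% of wild-type-only distal windows (761 of 2406, 29.8 to 33.5), 14.3% of shared windows (12.8 to 15.9) and 9.50% of MIZ-1DPOZ-only windows (9.03 to 10.00). The difference was 17.3 points from shared peaks (14.9 to 19.7) and 22.1 points from MIZ-1DPOZ-only peaks (20.2 to 24.1). In windows 2000 bp to each side of the wild-type-only distal peaks the share was 4.70% (4.13 to 5.33). The class was defined after the sequences had been seen, and no test was made of it.

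Most of these runs held CpG. With at least 2 CpG in the run, the share was 28.1% of wild-type-only distal windows, 13.7% of shared, 8.33% of MIZ-1DPOZ-only and 0.707% of flanking windows. With fewer than 2 CpG in the run, which includes plain CA repeats, it was 3.57%, 0.634%, 1.17% and 3.99%. The flanking windows were not filtered on masking or GC content, whereas the rule limits both in the peak windows, so that the shares in summits and flanks are given side by side only. The runs with at least 2 CpG had a median length of 50 bp (quartiles 38 and 61). They covered the summit base in 65.0% of their 675 windows, and runs with fewer CpG did so in 32.6% of 86.

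In wild-type-only distal peaks the run share differed between pileup classes. It was 16.4% (13.6 to 19.6) at pileups of 5 to 7, 35.5% (31.7 to 39.5) at 9 and 50.2% (44.3 to 56.0) at 11 to 12. In shared peaks the shares were 7.43%, 19.7% and 16.8% (12.9 to 21.5) in the same classes, and 19.9% at 10 fragments. At 13 to 19 fragments they were 49.0% (39.4 to 58.7) of 100 and 13.2% (9.30 to 18.4) of 212 peaks. These intervals cover counting error among the peaks of 1 library and are not a test between the groups. At 20 fragments or more, 0 of 6 wild-type-only and 2 of 169 shared peaks (1.18%, 0.325 to 4.21) held a run. Read the other way, 54.0% of all 4457 MIZ-1WT distal peaks were wild-type-only. The share was 70.7% over a run with at least 2 CpG (67.7 to 73.5) and 86.9% over a run with fewer CpG (78.8 to 92.2). In CpG-rich peaks it was 28.2% (25.1 to 31.6). Among the 2630 peaks without a run, a telomere-type array or a CpG-rich window it was 54.3% (52.4 to 56.2).

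The size of this difference depended on the repeat limit. Simple repeats are masked, so that a limit of 25% masked bases removed most runs, and the share was then 7.19% in wild-type-only distal peaks and 4.57 points above shared peaks. With the limits applied to the summit ± 50 bp, it was 17.7%, 9.30 points above. At a −log10 q of at least 5 it was 55.1%, 38.4 points above.

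**Figure D2:**
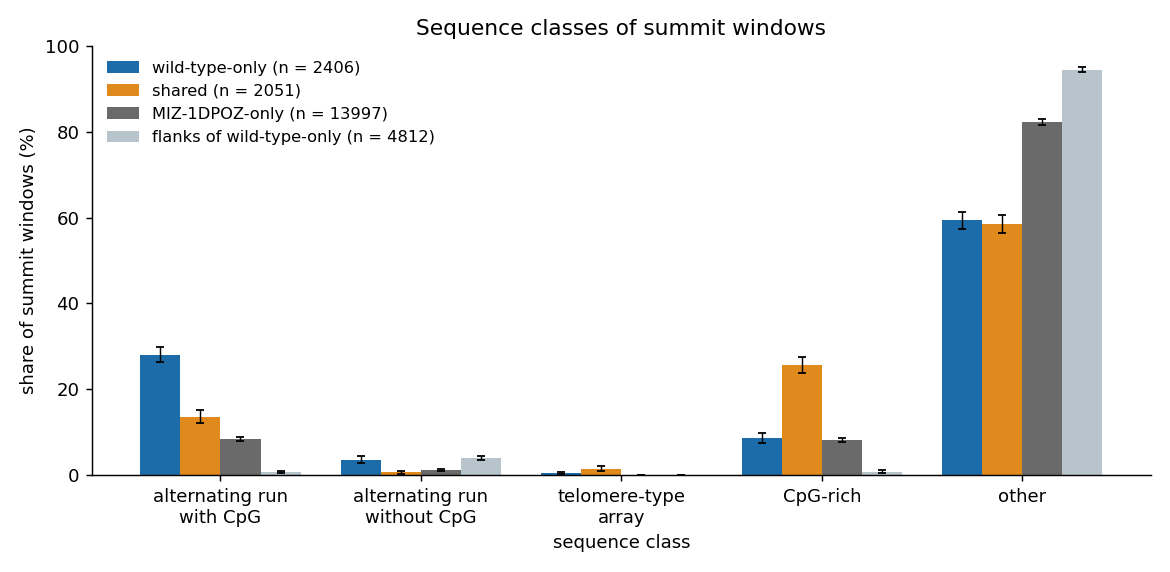
Share of summit windows (%) in each sequence class for wild-type-only, shared and MIZ-1DPOZ-only distal summits and for windows 2000 bp from wild-type-only summits, with 95% Wilson intervals. Runs labelled with CpG hold at least 2 CpG, and those labelled without CpG hold fewer. Alternating runs with CpG take 28.1% of wild-type-only windows and 0.707% of their flanks, while CpG-rich windows take 25.6% of shared and 8.60% of wild-type-only windows.

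Alternating runs were not particular to the MIZ-1WT list. Over the whole genome, 49067 runs of 20 bp or more with at least 2 CpG were found, of which 3336 (6.80%, 6.58 to 7.03) lay under a MIZ-1WT peak and 5282 (10.8%, 10.5 to 11.04) under a MIZ-1DPOZ peak. Of these, 1262 lay under both, 2074 under a MIZ-1WT peak only and 4020 under a MIZ-1DPOZ peak only. The covered share was higher with more CpG in both lists: it was 2.50% and 5.51% at 2 to 4 CpG, 15.8% and 22.1% at 5 to 9, and 32.6% and 40.7% among the 1985 runs with 10 or more. At 0 or 1 CpG it was 0.211% and 0.338%. Runs with more CpG were also longer, with medians of 33, 38, 54 and 76 bp from the lowest to the highest class. The part of length in these shares was not tested. The MIZ-1DPOZ peaks covered 22.5 Mb of the genome and the MIZ-1WT peaks 7.58 Mb, so that the higher counts under MIZ-1DPOZ peaks do not show a preference for runs.

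Around the summit the runs formed a narrow feature. In wild-type-only distal peaks, 17.7% of bases lay inside a run in the bin 20 bp wide just left of the summit and 19.2% in the bin just right of it, against 0.723% in the bin centred 490 bp to the left. In the 2 bins next to the summit, shared peaks had 6.76% and 8.21%, and MIZ-1DPOZ-only peaks 4.79% and 5.21%. GC content was centred on the summit too, at 60.4% and 60.9% in the bins beside it and 47.4% at 490 bp. The shared peaks had a broader and higher GC profile, with 66.0% and 66.7% in the central bins.

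**Figure D3:**
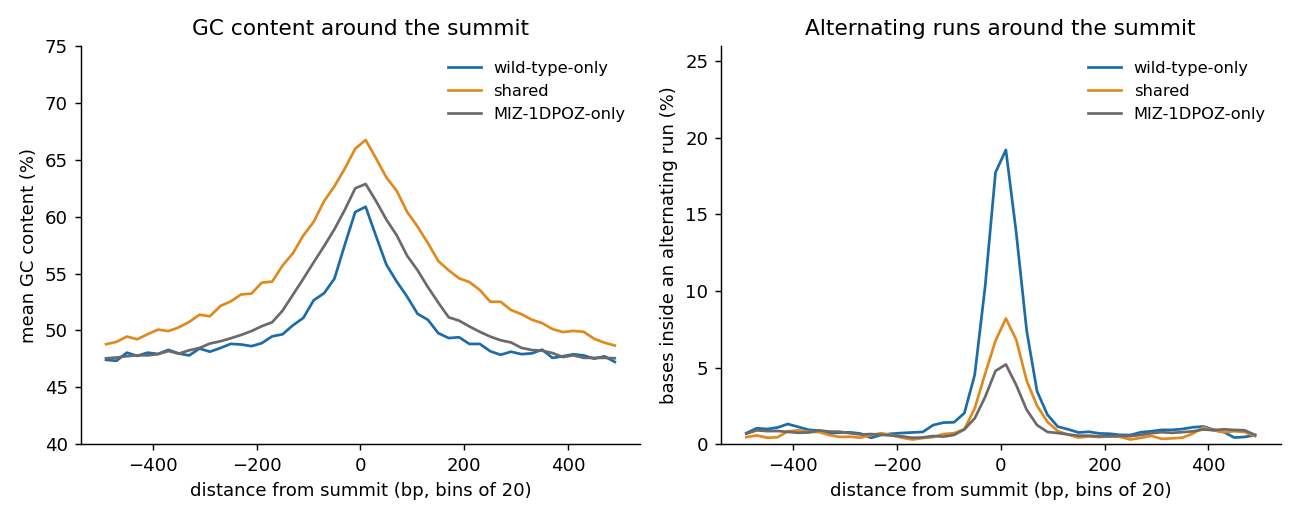
Mean GC content (%, left) and share of bases inside an alternating run (%, right) against the distance from the summit (bp, bins of 20) in wild-type-only, shared and MIZ-1DPOZ-only distal peaks. The run profile of wild-type-only peaks reaches 19.2% at the summit, compared with 8.21% for shared and 5.21% for MIZ-1DPOZ-only peaks, and each falls to about the same low level away from it.

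The composition of the windows differed accordingly. Median GC content was 56.7% (interval 56.2 to 56.7), compared with 63.7% in shared and 60.2% in MIZ-1DPOZ-only windows, and 47.3% in the flanks of wild-type-only distal peaks. The lower limit of GC content applies to the peak groups and not to the flanks. The mean number of CpG was 6.77 ± 5.49 (SD over 2406 windows) in wild-type-only, 9.89 ± 7.77 in shared and 5.61 ± 4.64 in MIZ-1DPOZ-only windows, and 2.39 in the flanks. CpG-rich windows, defined by an observed to expected CpG ratio of at least 0.6 and a GC content of at least 55% among windows with neither an array nor a run, were 8.60% of wild-type-only and 25.6% of shared windows, a difference of -17.0 points (-19.2 to -14.9). In MIZ-1DPOZ-only windows the share was 8.25%, and the difference from wild-type-only windows was 0.352 points (-0.803 to 1.62). Windows with a run were assigned to the run class first, so that the shares of the classes depend on each other.

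Telomere-type arrays, at least 3 tandem copies of the TTAGGG unit on either strand, were rare but led the list by score. They were found in 10 wild-type-only distal windows (0.416%, 0.226 to 0.763), with pileups from 8 to 25 (median 12.5), and in 30 shared windows, with pileups from 13 to 84 (median 36.5). None was found in 13997 MIZ-1DPOZ-only windows, which allows a share of up to 0.0214% when the limit is set at 3 counts of the total. All 40 arrays at MIZ-1WT distal summits were at single-copy summits by the median over the window, which includes sequence beside the array. The wild-type-only arrays were thus the weaker part of a feature that both lists contain.

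In windows without an alternating run, the leading 6-base words were about as frequent as in the other distal peaks. Among 6-base words, those most frequent relative to the flanks in all wild-type-only distal windows were CGCACA (27.3% of windows, 3.53% of flanks), GCGCAC (25.5% and 2.39%) and CGCGCA (24.1% and 1.00%). Once windows with runs or arrays were left out, these fell to 5.75%, 6.97% and 5.14%. These words alternate purines and pyrimidines themselves, so that a fall follows from leaving out the runs. The leading words were then CCTCCC (47.6%), CCCTCC (44.3%) and CTCCCC (41.3%), which were found in 48.4%, 43.2% and 41.5% of shared and 48.3%, 44.9% and 43.2% of MIZ-1DPOZ-only windows without a run. Of the windows with neither a run nor an array, 7.89% (6.68 to 9.30) held another exact tandem repeat of units of 1 to 6 bp over at least 24 bp, against 1.85% in shared and 2.82% in MIZ-1DPOZ-only windows. The Vav1 window above, built of GTGTCC and GTGCCC units, is of this kind.

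Known binding motifs were searched by their letters on both strands, and a match is no evidence of binding. The MYC E-box CACGTG was in 7.73% of wild-type-only distal windows, 5.95% of shared, 4.99% of MIZ-1DPOZ-only and 3.25% of all MIZ-1WT windows, and in 2.56% of flanks. This word itself alternates purines and pyrimidines: it was in 15.9% of the windows with a run and 3.95% of those without, and the latter was close to the 3.98% of shared windows without a run. The NRF1 core CGCATGCG, which alternates too, was in 4.86% of windows with a run and 0.365% of those without. The SP/KLF GC box GGGCGG was in 15.7% of wild-type-only and 27.7% of shared windows. Among windows without a run it was in 22.2% of wild-type-only, 31.5% of shared and 21.7% of MIZ-1DPOZ-only windows. Of the motifs of B cell factors, the octamer ATGCAAAT was in 0.582% and the PU.1-type ETS site GAGGAAGT in 1.29% of wild-type-only windows, against 1.25% and 1.33% in the flanks. The EBF1 core CCCNNGGG was in 12.5% of wild-type-only and 21.8% of shared windows and in 5.65% of flanks, and the RUNX word TGTGGT in 12.1%, 9.02% and 15.6%. The flanking windows had a lower GC content than the peak windows, and its part in these shares was not tested.

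Wild-type-only distal peaks lay mostly in introns. The summit was in an intron for 54.5% (52.5 to 56.5), intergenic for 40.2%, in an untranslated region for 4.45% and in a non-coding exon for 0.831%. The intron share was 5.97 points above that of shared peaks (3.03 to 8.90) and 1.98 points above that of MIZ-1DPOZ-only peaks (-0.176 to 4.13). The nearest start site was at a median of 14114 bp, compared with 13791 bp for shared and 14113 bp for MIZ-1DPOZ-only peaks. Distance to genes therefore did not set these peaks apart.

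The distance from wild-type-only distal peaks to MIZ-1DPOZ peaks varied widely. The nearest MIZ-1DPOZ peak was at a median of 8182 bp (quartiles 2930 and 18864, range 5 to 162461), counting 1 for adjacent peaks. It lay within 100 bp for 50 peaks (2.08%), within 1000 bp for 272 (11.3%, 10.1 to 12.6) and within 10000 bp for 1365 (56.7%). Of all 15828 MIZ-1WT peaks without MIZ-1DPOZ overlap, 2507 lay within 1000 bp of a MIZ-1DPOZ peak and 8297 within 10000 bp. Closeness to a MIZ-1DPOZ peak is therefore not read as a trait of the wild-type-only distal peaks. Among the 50 within 100 bp, 3 held an alternating run, against 250 of the 702 beyond 10000 and up to 30000 bp. A MIZ-1DPOZ peak next to a wild-type-only distal peak was thus uncommon but present.

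**Figure D4:**
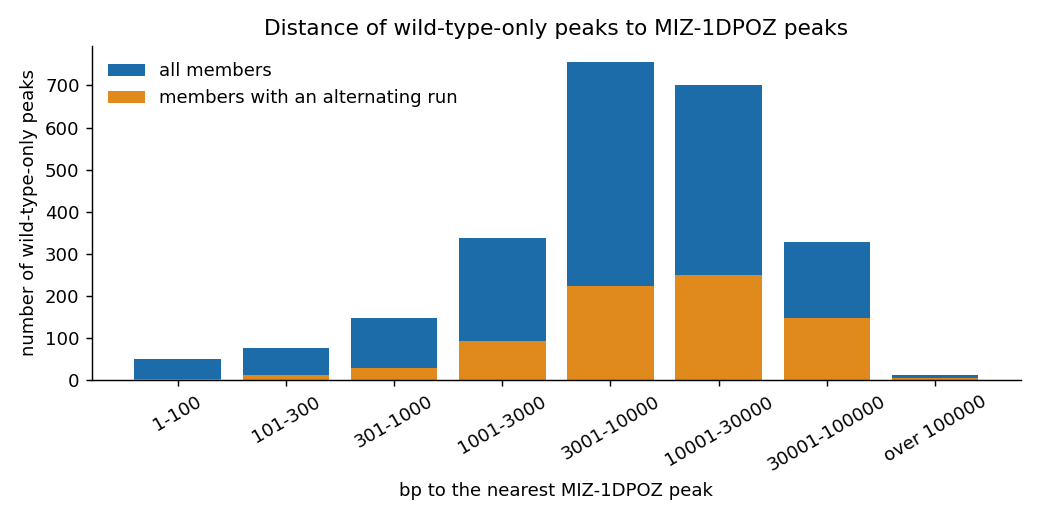
Number of wild-type-only distal peaks against the distance to the nearest MIZ-1DPOZ peak (bp, classes of unequal width), with those that hold an alternating run in orange in front of all of them in blue. The class ending at 10000 bp holds 756 peaks, 223 of them with a run, and the class ending at 100 bp holds 50, 3 of them with a run.

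Their density differed between chromosomes. It was 1.41 per Mb on chromosome 17, 1.35 on chromosome 11 and 1.33 on chromosome 19, and 0.592 on chromosome 14, the lowest autosome. Chromosome X held 31 wild-type-only distal peaks (0.181 per Mb, 1.29% of them, 0.909 to 1.82), 3.12% of the shared peaks (2.45 to 3.96) and 2.39% of the MIZ-1DPOZ-only peaks (2.15 to 2.66). The Y chromosome held 1, against 14 shared peaks. The sex of the mice was not given in the sources used here, and its part in these values was not tested.

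**Figure D5:**
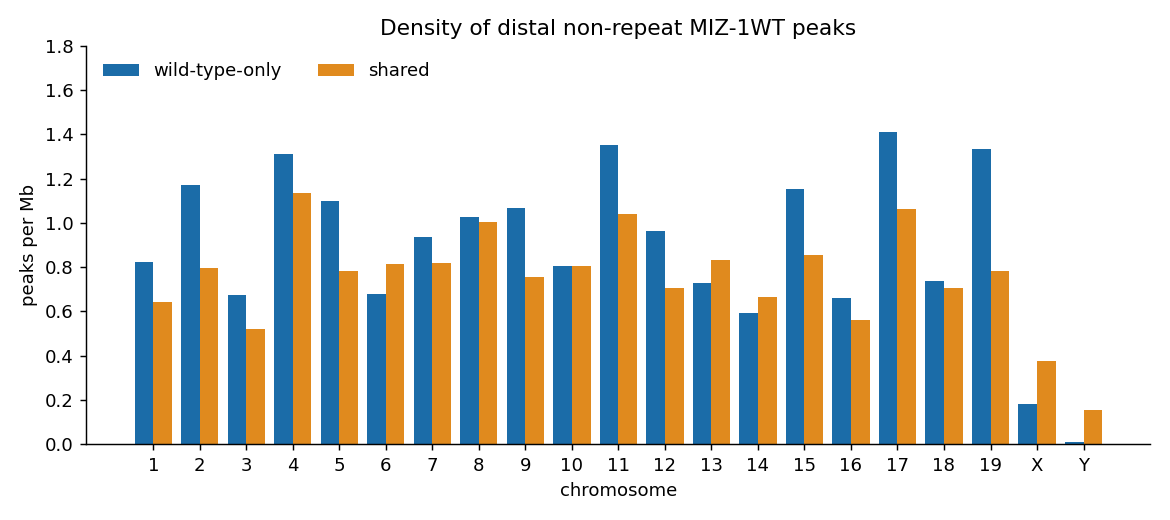
Distal non-repeat MIZ-1WT peaks per Mb of each chromosome, wild-type-only in blue and shared in orange. Wild-type-only peaks are densest on chromosome 17 (1.41 per Mb) and sparse on X (0.181) and Y (0.0109).

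The study concerned B cell receptor (BCR) signalling, and the genes near these distal sites were therefore listed. A wild-type-only distal peak lay in, or nearest to the start site of, 1469 of 21951 protein-coding genes (6.69%). A gene can hold a peak more easily when it is long: the share was 4.13% for genes under 50 kb and 23.99% for those of 300 kb or more. A MIZ-1DPOZ-only distal peak was assigned to 5643 and a shared one to 1168 of the 21951 genes. Of the 1469 genes, 884 had a MIZ-1DPOZ-only distal peak as well, 228 had a shared one, and 548 had neither. These counts were not adjusted for gene length. Gse1 held 6 wild-type-only distal peaks, and the 4435-kb readthrough annotation Gm20388 that spans it held 19. A peak without MIZ-1DPOZ overlap was thus not the same as a gene without a MIZ-1DPOZ peak.

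Among BCR complex and proximal signalling genes, 6 of 36 had a wild-type-only distal peak (16.7%, 7.87 to 31.9), against 10.5% of all genes at the same lengths. A MIZ-1DPOZ-only distal peak was assigned to 14 of the 36, among them Vav1, Vav2 and Sos1, and a shared one to 3. Over all 21951 protein-coding genes these counts were 5643 and 1168. Vav1, a guanine nucleotide exchange factor downstream of the BCR, held an intronic peak of 15 fragments (chr17:57298915-57299120, fold 8.60, −log10 q 10.5), 19705 bp from the nearest MIZ-1DPOZ peak. Syk, the kinase that transmits the BCR signal, held one of 12 fragments (chr13:52638212-52638461, fold 6.94) with the nearest MIZ-1DPOZ peak at 16842 bp and no MIZ-1DPOZ-only or shared distal peak assigned to it. The related exchange factor genes had 14 fragments over an alternating run in Vav2 (chr2:27383987-27384160) and 13 nearest to Vav3 (chr3:109281051-109281241), 59412 bp from its start site. Sos1, which activates RAS, had 8. A longer list of BCR-associated genes was taken from the study's supplement, where it had been filtered on expression. Of its 267 genes, 255 matched the protein-coding annotation, and 22 of these had a wild-type-only distal peak (8.63%, 5.77 to 12.7), against 8.0004% at the same lengths. A MIZ-1DPOZ-only distal peak was assigned to 82 genes of this list and a shared one to 10. Outside the shorter list, its highest −log10 q values were in Psma6, a proteasome subunit gene, and nearest to Map3k7, which encodes the kinase TAK1. Both peaks had 13 fragments over an alternating run, and the second lay 283618 bp from the start site of Map3k7.

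Of 39 B cell transcription factor genes, 11 had a wild-type-only distal peak (28.2%, 16.5 to 43.8), against 11.7% of all genes at the same lengths. A MIZ-1DPOZ-only distal peak was assigned to 20 of the 39, among them Foxp1, Pax5, Runx3, Arid5b and Runx1. A shared one was assigned to 5. Over all 21951 protein-coding genes the MIZ-1DPOZ-only and shared counts were 5643 and 1168, not adjusted for gene length. Foxp1, needed for early B cell development, held a pair of intronic peaks of 12 fragments each (chr6:98948594-98948778, over an alternating run, and chr6:98966155-98966325). Pax5, which maintains B cell identity, held one of 12 fragments in a non-coding exon (chr4:44704245-44704432), 394 bp from a MIZ-1DPOZ peak and 1445 bp from a start site. Runx3 had 12 fragments (558 bp from a MIZ-1DPOZ peak), Arid5b 10 and Runx1 9. The lists were chosen with earlier results known and no set test was made, so that these shares describe the lists.

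In the list of marginal zone and follicular fate genes, 6 of 21 had a wild-type-only distal peak (28.6%, 13.8 to 50.0), against 9.54% at the same lengths. A MIZ-1DPOZ-only distal peak was assigned to 11 of the 21, among them Notch2, Taok3, Dock2, Ccr7 and Tnfrsf13b. A shared one was assigned to 2. The counts over all 21951 protein-coding genes were 5643 and 1168, again not adjusted for gene length. Notch2, the receptor required for marginal zone B cells, and Taok3, a kinase in the same fate decision, each held an intronic peak of 9 fragments. Dock2, an activator of RAC in lymphocytes, held one of 11 fragments over an alternating run (chr11:34487729-34487914). Ccr7 and Tnfrsf13b were the nearest genes to peaks of 8 fragments each. These pileups are close to the median of all wild-type-only distal peaks.

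Of 15 known MIZ-1 target genes, 3 had a wild-type-only distal peak (Socs1 with 10 fragments, Ndrg2 with 9 and Vamp4 with 6), against 7.06% at the same lengths. A MIZ-1DPOZ-only distal peak was assigned to 3 of the 15 as well, among them Ndrg2, against 5643 of all 21951 protein-coding genes. Of the cell type markers, 1 of 7 for B cells (Pax5), 0 of 6 for T cells and 0 of 5 for myeloid cells had a wild-type-only distal peak. The shares of all genes at the same lengths were 9.12%, 4.13% and 5.51%. Lists this short cannot tell the cell types apart. In the immunoglobulin loci, Igk held 1 wild-type-only distal peak and Igh and Igl held 0.

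Some peaks passed or missed the limits of the rule narrowly. At the masking limit, the closest peaks inside had 49.8% masked bases and 12 fragments each, and the closest outside had 50.2% with 19 and 15 fragments. At the GC limit, those inside had 40.3% with 17 and 10 fragments and those outside 39.8% with 11 and 10. Before a start site, peaks at 2008 and 2017 bp (11 and 10 fragments) were inside and those at 1996 and 1983 bp (11 and 7) outside. After a start site, peaks at 1003 and 1006 bp (10 and 8 fragments) were inside and those at 995 and 986 bp (9 and 7) outside. The closest peaks without overlap were separated from a MIZ-1DPOZ peak by 4 bp (9 and 7 fragments), and the closest with overlap shared 1 and 3 bp with it (7 and 10 fragments).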

How the data were processed

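ChIP-seq for MIZ-1 was performed by the authors on B220+ splenocytes, fixed with 1% formaldehyde and sequenced paired-end for 50 cycles. The study's methods name Trimmomatic for read trimming, bwa for alignment against mm10 and MACS2 for peaks, which the authors called for each genotype. The submitters' processing notes name Bowtie2 2.2.6 and MACS2 2.1.0 instead, and which was used could not be settled. Only the 2 deposited peak lists were analysed. The deposited fold enrichment is a ratio over local background, and the deposited −log10 p and −log10 q values are the authors' own scores. The q cutoff and the handling of duplicate and multi-mapping reads were not given in the sources used here. Depth is known only through the scores. Reads and input libraries were not analysed here, and 0 columns of per-sample values were left unused.

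Positions were set against GRCm38, the assembly called mm10, and the GENCODE basic annotation (55450 genes, 77200 start sites), with 1-based coordinates. Promoters reached 2000 bp before and 1000 bp after a start site. The summit pileup was solved from fold enrichment and −log10 p under MACS2's formulas as the whole number that came closest to the deposited score, which was tested on simulated data. The depth ratio came from the most frequent background value over the smallest peak width of each list. A single-copy summit had a median of 1 genomic copy over 5 sequences of 50 bases. Overlap meant at least 1 bp. Sequence classes were assigned in the order telomere-type array, alternating run, CpG-rich, other, and were tested on simulated windows. Shares carry 95% Wilson intervals, medians order-statistic intervals, and differences of shares Newcombe intervals. With 1 library per genotype no p-value was computed. Gene lists were compared with all protein-coding genes in the same bins of 50 kb of gene length.

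The peaks, gene lists and motifs were chosen with earlier results of these data known. Named peaks were the 10 with the largest −log10 q, all with single-copy summits, and the 2 nearest on each side of each limit. Named genes were their hosts or nearest genes and, for each list, up to 5 genes with the largest −log10 q. The sequence classes, the peaks with 20 fragments or more and the genes with most peaks were chosen after the values were seen. The consensus sequence of MIZ-1 was not searched here. Some genes, gene lists and sequences are not reported here, for reasons unrelated to their values. Scripts ran under Python 3.11.15 with scipy 1.17.1 and pandas 2.3.3. The arrays used numpy 2.4.6, compiled loops numba 0.67.0, and plots matplotlib 3.10.9.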

Additional observations from a re-analysis of the deposited data

How the results depend on the processing

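No paired analysis was possible because there was a single ChIP library for either genotype, and leaving out a library was not possible for the same reason. The alternatives for the alternating runs were chosen after seeing the data. Causes of these changes were not tested, except where the alternative leaves fewer peaks by construction. Depth limits all values, since most peaks rested on few fragments. The order of the values below is the number of wild-type-only distal peaks, the share of distal peaks without MIZ-1DPOZ overlap, the median pileup, the single-copy share, the intron share, the median GC content, the mean number of CpG, the share with a MIZ-1DPOZ peak within 1000 bp, the number of protein-coding genes, the share with an alternating run and its difference from shared peaks in points, and a value that stayed within its interval (or a count within 1.5 times) is left out.

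At a MIZ-1WT −log10 q of at least 5 they were 526 peaks, 40.9%, 11 fragments, 97.9% single-copy, 57.6% in introns, 53.7% GC, 8.37 CpG, 9.13% within 1000 bp, 378 genes, 55.1% with a run and 38.4 points. At a fold of at least 5 they were 1141 peaks, 50.4%, 10 fragments, 97.02% single-copy, 55.2% GC, 7.55 CpG, 9.82% within 1000 bp, 760 genes, 44.8% with a run and 26.7 points. With MIZ-1DPOZ peaks of a −log10 q of at least 5 they were 65.8%, 57.7% GC, 7.36 CpG, 6.93% within 1000 bp and 29.3% with a run. With a MIZ-1DPOZ peak within 500 bp counted as overlapping they were 50.01%, 55.7% GC, 6.38 CpG and 4.26% within 1000 bp. With single-copy summits they were 60.1% and 13.8 points. With 25% or less masked bases they were 1307 peaks, 47.4%, 8 fragments, 94.0% single-copy, 60.2% GC, 7.04 CpG, 14.6% within 1000 bp, 892 genes, 7.19% with a run and 4.57 points. Without a GC minimum they were 55.7% GC and 6.53 CpG. With promoters of 5000 bp to both sides they were 6.52 CpG and 9.51% within 1000 bp. With the summit ± 50 bp they were 50.6%, 8 fragments, 94.8% single-copy, 60.4% GC, 3.82 CpG, 12.8% within 1000 bp, 17.7% with a run and 9.30 points. GC content and CpG were counted in this narrower window. The 3.82 CpG are therefore not comparable with the 6.77 CpG in the summit ± 100 bp. With runs of 30 bp or more, 27.3% had a run. The difference from shared peaks kept its direction under every alternative run. Of 90 motif shares under the alternatives, 65 stayed within the interval of the reported share.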
